A study of Caenorhabditis elegans with 26 samples.

Results

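The genes described here are 10 core cell cycle regulators of the nematode Caenorhabditis elegans, taken by name: the B-type cyclins cyb-1, cyb-2.1, cyb-2.2 and cyb-3, the A-type cyclin cya-1, the E-type cyclin cye-1, the D-type cyclin cyd-1, the cyclin-dependent kinases cdk-1 and cdk-4, and the CDK inhibitor cki-1. Of these 10 genes 9 were measured, among 20182 genes in the count table, and cya-1 was not analysed here. All 9 passed the filter on low counts in both time courses. No measured value entered the choice of the 10 names, but they were chosen with earlier results of these data known.

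Both groups were whole wild-type N2 worms that carried no added allele or agent. Larvae that had hatched overnight from prepared eggs were put on food and collected at set times. Total RNA depleted of ribosomal RNA was sequenced. Course B had 10 libraries, every 2 h from 18 to 36 h, grown on peptone-rich 2% nematode growth medium with the bacterium NA22. Course A had 16 libraries, with titles every 1 h from 21 to 36 h, grown on 2% nematode growth medium with the bacterium OP50. The submitters' notes say that course A grew slowly and that its worms were collected 1 h later than the title time. By those notes the title is nearer to developmental time, and all times below are title times. Course, bacterium, plate and day cannot be told apart. No time point was sequenced more than once. Each p-value sets a fitted change against the scatter of single libraries around a curve, or a course difference against the scatter among pairs. Libraries held 22587893 to 36083371 counts in course B and 16241561 to 29911888 counts in course A. A count of 3 was worth 0.0942 to 0.152 CPM (the count scaled to library size) in course B and 0.102 to 0.184 CPM in course A. That floor covers counting error only.

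A cyclin-dependent kinase is active only when bound to a cyclin, and the cyclins present set which step of the cycle it drives. D-type cyclins with CDK4 carry cells out of G1, E-type cyclins drive entry into S phase, and A- and B-type cyclins with CDK1 drive mitosis and the meiotic divisions. Inhibitors of the Cip/Kip family, to which cki-1 belongs, hold cells in G1. In a growing larva these genes serve somatic blast cells, which divide in bursts tied to the larval stages. They also serve the germ line, whose cells proliferate, enter meiosis and, near the end of larval life, form sperm and then oocytes. In bulk RNA of whole worms, more cells of a type and more RNA per cell cannot be told apart.

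In a fit with a linear change and an 8 h cycle, cyb-1, cyb-2.1, cyb-2.2 and cye-1 rose in course B and in course A, cdk-4 fell in both, and cyd-1 fell in course A. That is 4 of 9 genes called rising in course B, where 16% of all 15003 tested genes rose, and 4 of 9 in course A, where 21.1% of 15888 tested genes rose. Falling calls were 1 of 9 in course B against 12.1% of all genes, and 2 of 9 in course A against 12.7%. Calls required edgeR's quasi-likelihood test to give a Benjamini-Hochberg adjusted p under 0.05, and a size of 1 or more in log2 units across 15 h. The median linear change over the 9 genes was 0.66 in course B and 0.82 in course A on the log2 scale, beside medians over all tested genes of -0.06 in course B and 0.04 in course A.

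**Figure D1:**
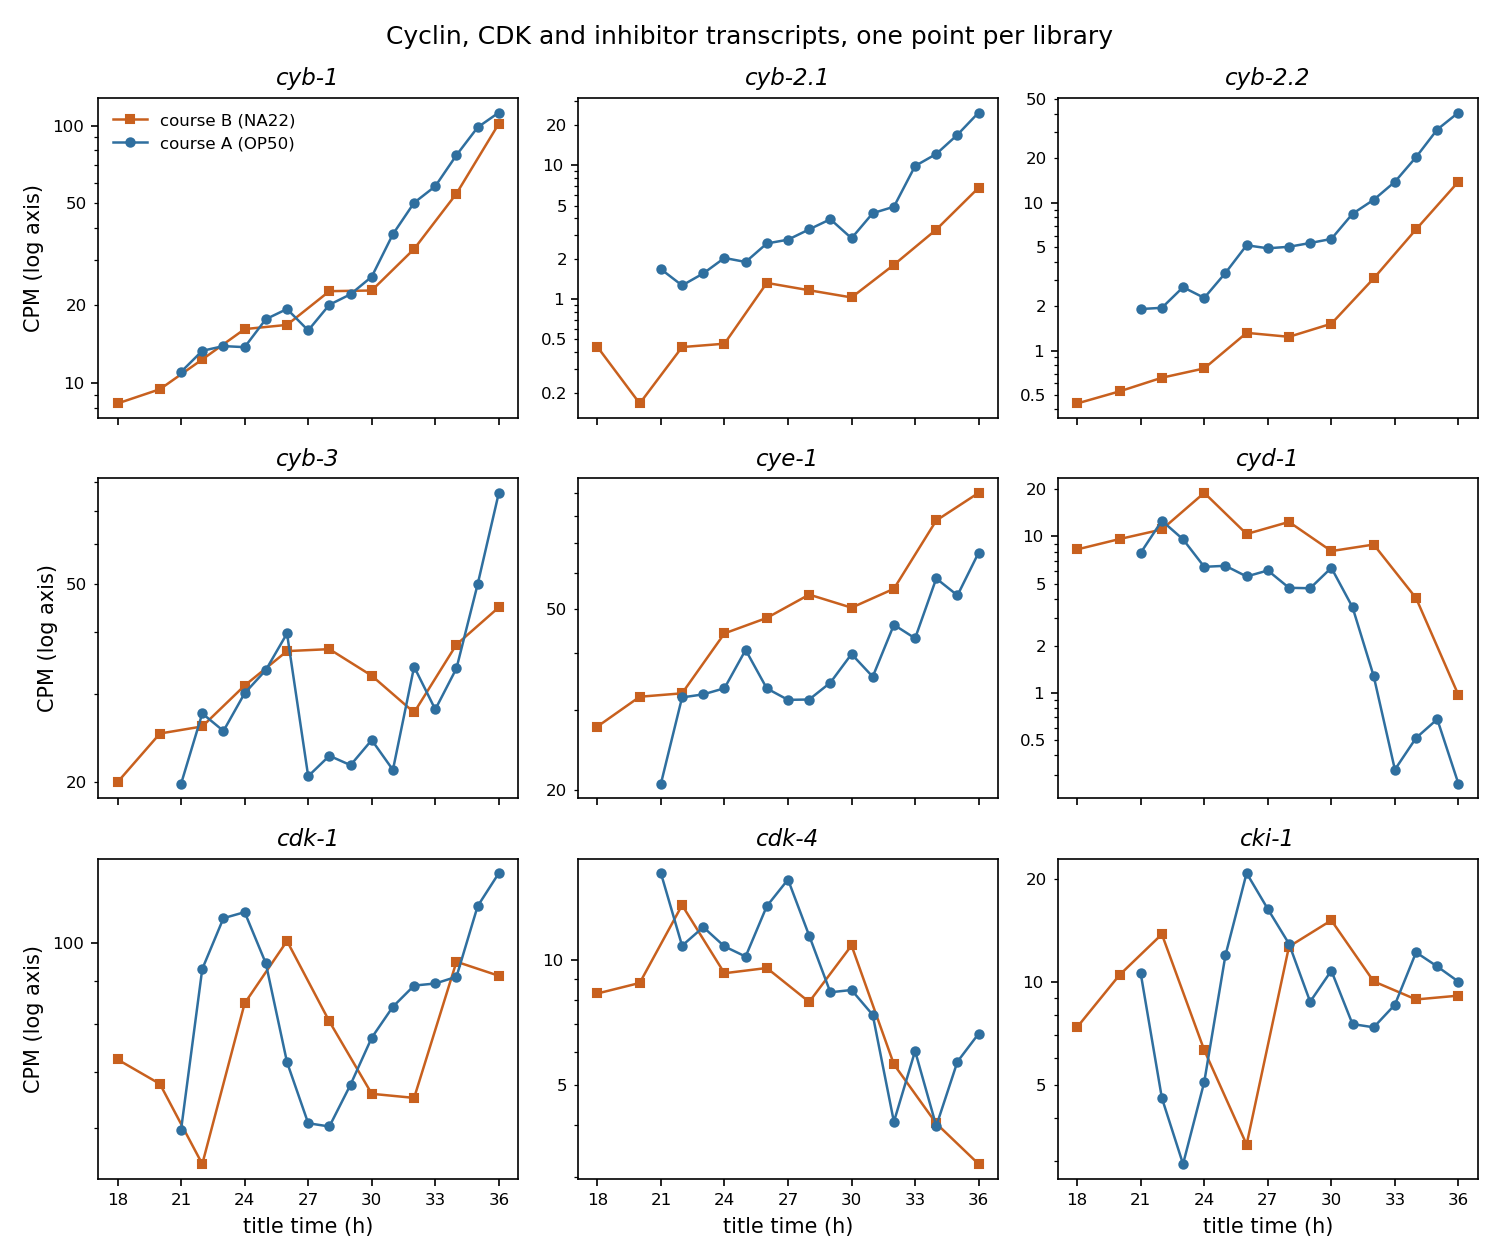
CPM of each of the 9 measured genes (y axis, log scale, its own range in each panel) against title time in hours (x axis), with 1 point per library for course B (squares) and course A (circles). cyb-1, cyb-2.1, cyb-2.2 and cye-1 end at their highest value in both courses, cyd-1 ends at its lowest, and cdk-1 and cki-1 go up and down.

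cyb-1, which encodes a cyclin B that acts with CDK-1 in mitosis and meiosis, rose in both courses. In course B its lowest value was 8.32 CPM at 18 h, its median 19.8 CPM and its highest 101.7 CPM at 36 h. In course A the lowest was 11.03 CPM at 21 h, the median 21.1 CPM and the highest 112 CPM at 36 h. The late libraries lay above the early ones without overlap in both courses. In course B they averaged 53.0 ± 35.0 CPM late (30 to 36 h, n = 4) and 11.6 ± 3.51 CPM early (18 to 24 h, n = 4). In course A they averaged 60.2 ± 33.1 CPM late (29 to 36 h, n = 8) and 15.6 ± 3.19 CPM early (21 to 28 h, n = 8) in course A (SD). The fitted rise over 15 h was 2.69 ± 0.23 on the log2 scale in course B (SE; edgeR adjusted p = 3.17e-05) and 3.34 ± 0.25 in course A (edgeR adjusted p = 1.63e-08). Without the 36 h library of course B the rise of cyb-1 was 2.36 (edgeR adjusted p = 0.000107).

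cyb-2.1 and cyb-2.2 encode closely related B-type cyclins, and reads may be split between them in a way the sources used here do not give; their values are uncertain to that extent. cyb-2.2 was lowest at 0.439 CPM at 18 h in course B, with a median of 1.28 CPM and a highest value of 13.9 CPM at 36 h. In course A it was lowest at 1.91 CPM at 21 h, with a median of 5.25 CPM and a highest value of 40.8 CPM at 36 h. It rose by 3.95 ± 0.37 on the log2 scale in course B (edgeR adjusted p = 4.76e-05) and by 4.01 ± 0.27 in course A (edgeR adjusted p = 4.67e-09). cyb-2.1 followed the same course at a lower level. In course B it had 0.166 CPM (5 counts) at its lowest at 20 h, a median of 1.095 CPM and 6.79 CPM at 36 h. In course A it had 1.26 CPM at 22 h, a median of 3.08 CPM and 24.8 CPM at 36 h. Its rise was 3.51 ± 0.41 in course B (edgeR adjusted p = 0.000168) and 3.68 ± 0.34 in course A (edgeR adjusted p = 1.65e-07). The fitted rise of cyb-2.2 was 5.03 on the log2 scale between the lowest and highest points of a smooth curve in course B and 4.64 in course A, the widest of the B-type cyclins in each course.

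cyb-3, the B-type cyclin most distant from the others, which is needed for chromosome segregation, was already abundant early and moved less. It ranged from 20.02 CPM at 18 h to 44.9 CPM at 36 h in course B (median 31.99 CPM), and from 19.9 CPM at 21 h to 76.0 CPM at 36 h in course A (median 27.7 CPM). Its late and early libraries overlapped in both courses. They averaged 35.7 ± 7.36 CPM late and 25.6 ± 4.60 CPM early in course B (SD, n = 4 each), and 36.1 ± 18.6 CPM late and 27.4 ± 6.85 CPM early in course A (SD, n = 8 each). The linear change was 0.66 ± 0.19 on the log2 scale in course B (edgeR adjusted p = 0.0197) and 0.82 ± 0.35 in course A (edgeR adjusted p = 0.0667), below the minimum of 1 in both. In course A cyb-3 had 39.8 CPM at 26 h, 20.6 CPM at 27 h and 21.2 CPM at 31 h before the climb to 76.0 CPM, so its profile was not a straight line. A smooth curve with 3 degrees of freedom called it as changing with time in course B (fitted range 1.08 on the log2 scale, edgeR adjusted p = 0.0489) and in course A (range 1.70, edgeR adjusted p = 0.000113). In course B that call was lost when any of 8 of the 10 libraries was left out, with adjusted p between 0.0611 and 0.161.

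Because cyb-1 and the cyb-2 genes rose more than cyb-3, the make-up of the B-type cyclin transcripts shifted. The sum of the 4 genes, in CPM per kb of coding length, was 25.9 at 18 h and 154 at 36 h in course B, and 31.0 at 21 h and 236 at 36 h in course A. cyb-3 held 69.7% of that sum at 20 h and 25.29% at 36 h in course B, and 60.5% at 22 h and 22.0% at 34 h in course A. cyb-1 held 28.0% at 20 h and 61.2% at 36 h in course B, and 29.4% at 24 h and 53.3% at 34 h in course A. The ratio of cyb-1 to cyb-3 per coding length had its highest value at 2.42 in both courses, at 36 h in course B and at 34 h in course A. In course A the shift went partly back after 34 h. At 36 h cyb-3 held 27.9% and cyb-1 44.0% there, and their ratio was 1.58. Shares and ratios within a library do not depend on how libraries were scaled, and they carry no test.

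**Figure D2:**
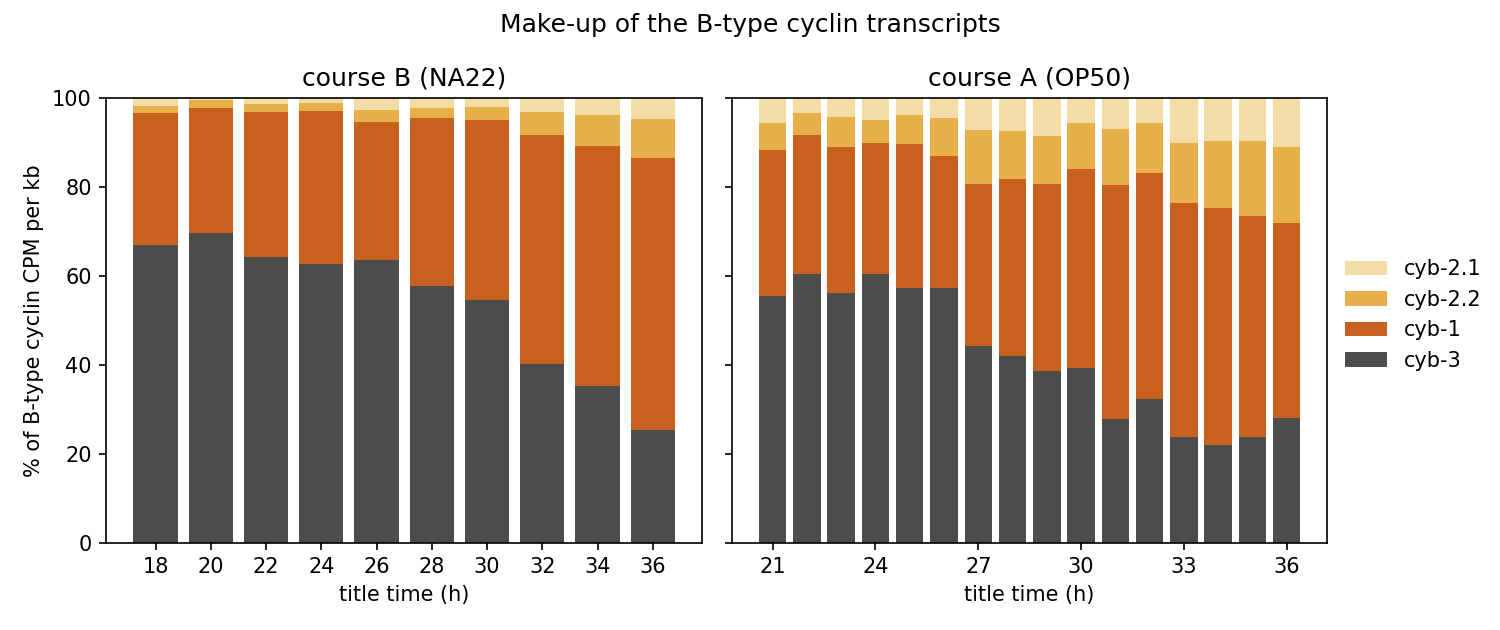
Share of each B-type cyclin in their summed CPM per kb of coding length (y axis, %) in each library by title time in hours (x axis), course B left and course A right. cyb-3 falls from the majority early, 69.7% in course B and 60.5% in course A at most, to a lowest share of 25.29% in course B and 22.0% in course A. The lowest share in course A is at 34 h, and at 36 h it is 27.9%. The cyb-2 genes hold more in course A.

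cye-1, the E-type cyclin that starts DNA replication, rose less steeply. It had 27.5 CPM at 18 h, a median of 49.0 CPM and 90.1 CPM at 36 h in course B, and 20.6 CPM at 21 h, a median of 34.9 CPM and 66.5 CPM at 36 h in course A. Late and early libraries did not overlap in course B (68.5 ± 18.8 CPM late and 34.1 ± 7.09 CPM early, SD, n = 4 each) and overlapped in course A (47.1 ± 11.4 CPM late and 31.9 ± 5.46 CPM early, SD, n = 8 each). The rise was 1.29 ± 0.11 on the log2 scale in course B (edgeR adjusted p = 3.45e-05) and 1.12 ± 0.17 in course A (edgeR adjusted p = 5.64e-05). In course A the estimate lay close to the minimum of 1, and was 0.95 to 0.99 with total counts as scaling, with limma on the deposited log2 values, and without the library of 21, 35 or 36 h.

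cyd-1, the D-type cyclin that with CDK-4 carries postembryonic blast cells past G1, ran the other way. In course B it was highest at 18.96 CPM at 24 h, had a median of 9.24 CPM and was lowest at 0.971 CPM (28 counts) at 36 h. In course A it was highest at 12.6 CPM at 22 h, had a median of 5.12 CPM and was lowest at 0.264 CPM (6 counts) at 36 h, close to the floor. The loss was late and steep. Course B had 8.87 CPM at 32 h, 4.03 CPM at 34 h and 0.971 CPM at 36 h. Course A had 6.30 CPM at 30 h, 1.28 CPM at 32 h and 0.325 CPM at 33 h. The linear fit gave -1.64 ± 0.75 on the log2 scale in course B (edgeR adjusted p = 0.108, not called) and -4.31 ± 0.73 in course A (edgeR adjusted p = 0.000135). In course B the linear call was made by DESeq2 (adjusted p = 0.0239), by limma on the deposited values (adjusted p = 0.0381), with a quadratic term, and without the 28 h library. Without the 36 h library the change was -0.79 (edgeR adjusted p = 0.299). The smooth curve called cyd-1 in both courses, with a fitted range of 3.47 in course B (edgeR adjusted p = 0.0107) and 5.38 in course A (edgeR adjusted p = 2.05e-05). In course B that call rested on the 36 h library (edgeR adjusted p = 0.136 without it, range 1.54). The slopes differed by 2.69 ± 1.06 on the log2 scale, course B minus course A, which did not pass the test (edgeR p = 0.0184, adjusted p = 0.273). Per coding length, the level of cye-1 was 1.80 times that of cyd-1 at the least, at 24 h, and 71.7 times at 36 h in course B. It was 1.96 times at the least, at 22 h, and 195 times at 36 h in course A.

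cdk-4, the kinase partner of cyclin D, fell in both courses. It was highest at 13.5 CPM at 22 h in course B (median 8.53 CPM) and lowest at 3.22 CPM at 36 h. In course A it was highest at 16.1 CPM at 21 h (median 9.31 CPM) with a further high of 15.6 CPM at 27 h, and lowest at 3.98 CPM at 34 h. Late and early libraries overlapped in course B (5.92 ± 3.41 CPM late and 9.96 ± 2.40 CPM early, SD, n = 4 each) and did not overlap in course A (6.32 ± 1.72 CPM late and 12.5 ± 2.28 CPM early, SD, n = 8 each). The fitted change was -1.19 ± 0.34 on the log2 scale in course B (edgeR adjusted p = 0.0188) and -1.75 ± 0.29 in course A (edgeR adjusted p = 0.000107). In course B the call was lost without the library of 32, 34 or 36 h (edgeR adjusted p = 0.0517, 0.0609 and 0.0889), and with a 9 h cycle or no cycle in the fit. The change was then -1.06, -1.07 and -0.81 without these libraries, -1.11 with a 9 h cycle and -1.19 with no cycle.

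cdk-1, the mitotic kinase, had the highest median level per coding length of the 9 genes in both courses and no linear trend that passed. It lay between 54.3 CPM at 22 h and 100.6 CPM at 26 h in course B (median 76.5 CPM), and between 59.7 CPM at 21 h and 121 CPM at 36 h in course A (median 89.2 CPM). The linear change was 0.27 ± 0.16 on the log2 scale in course B (edgeR adjusted p = 0.204) and 0.48 ± 0.23 in course A (edgeR adjusted p = 0.0950). The values went up and down. In course B they stood at 54.3 CPM at 22 h, 100.6 CPM at 26 h, 65.2 CPM at 32 h and 95.0 CPM at 34 h. In course A they stood at 59.7 CPM at 21 h, 109 CPM at 24 h, 60.2 CPM at 28 h and 121 CPM at 36 h. The fitted 8 h cycle had a peak to trough of 0.56 ± 0.17 in course B (edgeR adjusted p = 0.0932) and 0.41 ± 0.19 in course A (edgeR adjusted p = 0.233) and was called in neither. With the B-type cyclins climbing around it, the ratio of cdk-1 to the 4 B-type cyclins summed, per coding length, was 2.81 at 18 h and 0.598 at 36 h in course B, and 2.76 at 23 h and 0.517 at 36 h in course A.

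cki-1, the Cip/Kip inhibitor that keeps blast cells in G1, had the largest fitted 8 h cycle of the 9 genes in both courses. It had a low of 3.35 CPM at 26 h and highs of 13.8 CPM at 22 h and 15.1 CPM at 30 h in course B (median 9.57 CPM). It had a low of 2.94 CPM at 23 h and a high of 20.8 CPM at 26 h in course A (median 10.3 CPM). The peak to trough of the 8 h fit was 1.22 ± 0.36 on the log2 scale in course B (edgeR adjusted p = 0.0806, not called) and 1.39 ± 0.35 in course A (edgeR adjusted p = 0.0169, called). DESeq2 called the cycle in course B (adjusted p = 0.0316), and in course A the call was lost with a 7 h cycle (edgeR adjusted p = 0.0702). Thus 0 of 9 genes were called cycling in course B, where 21% of all genes were, and 1 of 9 in course A, where 22.8% were. At an unadjusted p under 0.05 the counts were 2 in course B (cdk-1 and cki-1) and 2 in course A (cdk-4 and cki-1). Over all tested genes 6072 of 15003 reached that p in course B and 7025 of 15888 in course A. In course B DESeq2 called 1 and limma 0. The fitted peak of cki-1 fell at 29.5 h in course B and at 26.9 h in course A, 2.65 h later in course B. The linear change was 0.15 ± 0.33 in course B (edgeR adjusted p = 0.741) and -0.02 ± 0.43 in course A (edgeR adjusted p = 0.974).

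**Figure D3:**
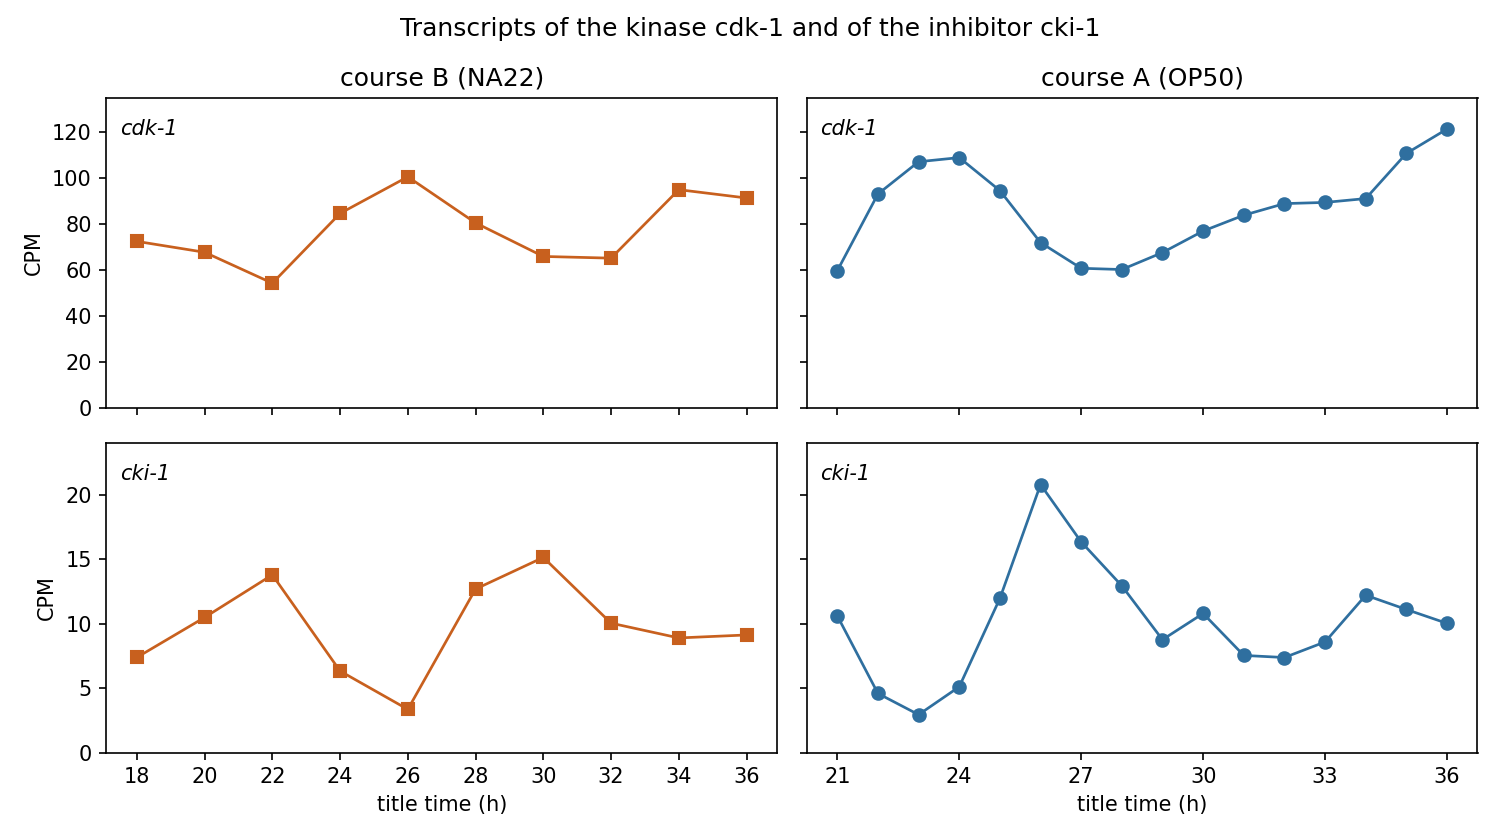
CPM of cdk-1 (top) and cki-1 (bottom) against title time in hours, with 1 point per library, course B left and course A right. In each course the lowest cki-1 value (3.35 CPM at 26 h in course B, 2.94 CPM at 23 h in course A) stands at or within 1 h of a high of cdk-1 (100.6 CPM at 26 h in course B, 109 CPM at 24 h in course A).

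High values of cdk-1 stood beside low values of cki-1 in the earlier part of each course. cki-1 stood at its lowest at 26 h in course B, the time of the highest cdk-1, and at 23 h in course A, where cdk-1 had 107 CPM. Per coding length, the level of cdk-1 was 2.18 times that of cki-1 at 22 h and 16.7 times at 26 h in course B, and 20.2 times at 23 h and 1.92 times at 26 h in course A. Across the libraries of a course the correlation of the log2 CPM of cdk-1 and cki-1 was -0.69 in course B (n = 10) and -0.51 in course A (n = 16). That was not the strongest opposition among pairs of the measured genes. For example, cyb-1 with cyd-1 had -0.78 in course B and -0.94 in course A. Likewise cyb-1 with cdk-4 had -0.84 in course B and -0.85 in course A. Other pairs were positive, such as cyb-1 with cyb-2.2 at 0.99 in course B and 0.98 in course A. The libraries share the time axis, and the genes share the scaling of each library, so these correlations are a description only.

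**Figure D4:**
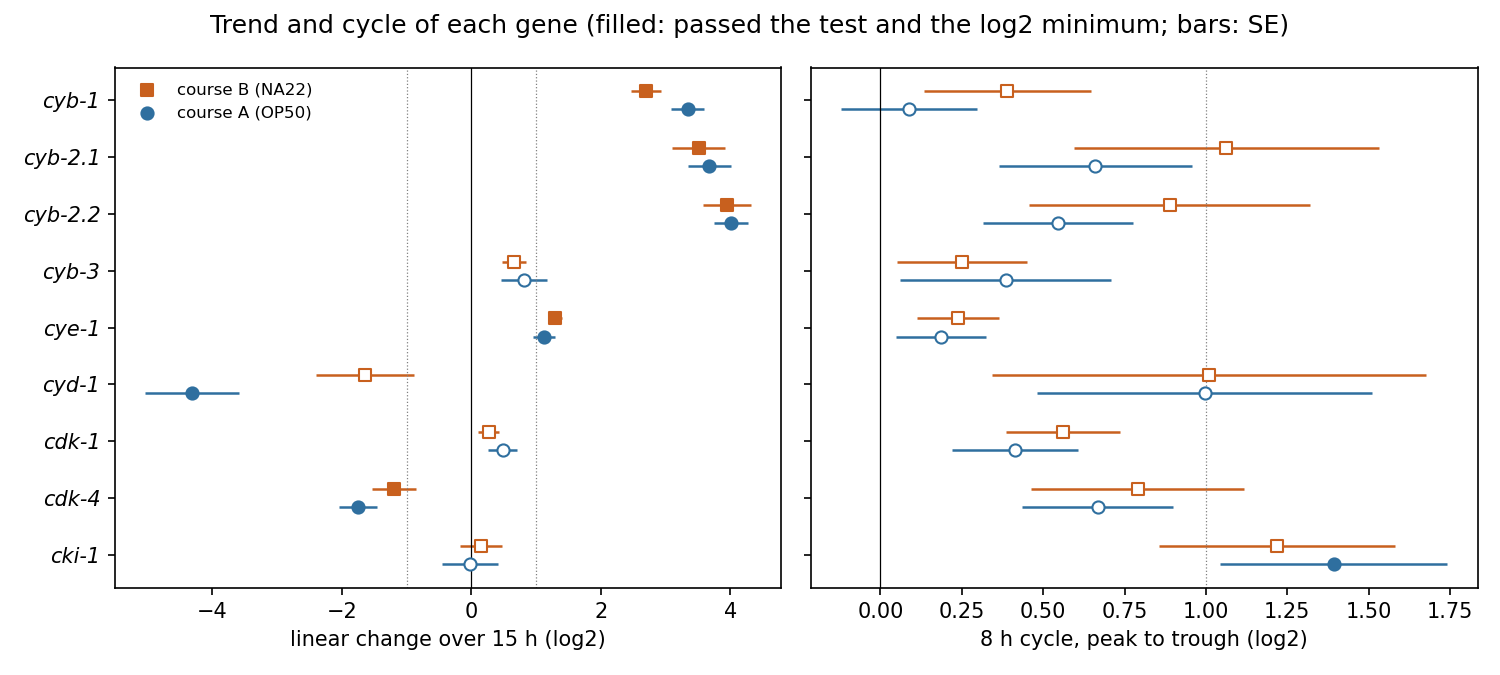
Fitted linear change over 15 h (left) and peak to trough of the 8 h cycle (right), both in log2 units, for each of the 9 genes, with SE bars and filled symbols where the call was made, course B squares above course A circles. The 3 genes cyb-1, cyb-2.1 and cyb-2.2 lie farthest to the right at 2.69 to 4.01, cyd-1 in course A lies farthest to the left at -4.31, and in the right panel the filled symbol is cki-1 in course A at 1.39.

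The smooth curve, which takes any slow change with time, called 7 of the 9 genes in course B, where 22.8% of all tested genes were called, and 7 of 9 in course A, where 35.2% were. The genes it did not call were cdk-1 and cki-1 in both courses. Without the 36 h library of course B the count there was 3, cyb-1, cyb-2.2 and cye-1. Calls over all tested genes also dropped without that library, to 2134 of 14550 from 3422 of 15003.

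Per kb of coding length cdk-1 had the highest median and cyb-2.1 the lowest in both courses. In course B the medians were 76.8 CPM per kb for cdk-1, 31.2 for cye-1, 27.7 for cyb-3, 18.2 for cyb-1, 17.3 for cki-1, 8.32 for cdk-4, 7.60 for cyd-1, 1.26 for cyb-2.2 and 1.15 for cyb-2.1. In course A they were 89.6 for cdk-1, 24.0 for cyb-3, 22.2 for cye-1, 19.5 for cyb-1, 18.7 for cki-1, 9.07 for cdk-4, 5.17 for cyb-2.2, 4.21 for cyd-1 and 3.24 for cyb-2.1. The ranges over libraries of each gene and the next in this order overlapped in both courses, and cyb-1 spanned 7.68 to 93.9 CPM per kb in course B and 10.2 to 104 CPM per kb in course A and so crossed most of its neighbours over time.

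Between the courses at the same title time, the cyb-2 genes were lower and cyd-1 higher in course B. Over the 8 shared times cyb-2.2 averaged 3.64 ± 4.59 CPM in course B and 11.5 ± 13.2 CPM in course A, and cyb-2.1 averaged 2.04 ± 2.13 CPM in course B and 6.73 ± 8.05 CPM in course A (SD over times, n = 8 each). The difference, course B minus course A with time as a block, was -1.78 ± 0.13 on the log2 scale for cyb-2.2 (edgeR adjusted p = 0.000121) and -1.63 ± 0.15 for cyb-2.1 (edgeR adjusted p = 0.000321), and both were lower in course B at 8 of 8 times. cyd-1 averaged 9.33 ± 5.42 CPM in course B and 4.70 ± 4.09 CPM in course A, a difference of 1.37 ± 0.39 (edgeR adjusted p = 0.0279), higher in course B at 7 of 8 times. That is 2 of 9 genes called lower, where 7.74% of all 15639 tested genes were lower in course B, and 1 of 9 called higher, where 1.79% were. The cyd-1 call was lost when the time 24, 28, 32 or 34 h was left out (edgeR adjusted p = 0.0505 to 0.0590).

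The other genes differed by less than 1 on the log2 scale at the same title time. cye-1 was 0.36 ± 0.08 higher in course B (edgeR adjusted p = 0.00981) at 8 of 8 times, a small but even difference under the minimum size. cyb-1 differed by -0.20 ± 0.09 (edgeR adjusted p = 0.140), and cyb-3, cdk-1, cdk-4 and cki-1 by -0.03, -0.19, -0.17 and -0.03, all with adjusted p above 0.3. The median of all genes lay at -0.13 in this comparison, and at -0.38 with total counts as scaling. The members shift with that scaling too.

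The size of the level differences depended on how the courses were lined up. At the same harvest time (8 pairs) all 3 calls were made, with -1.54 ± 0.15 for cyb-2.2 (edgeR adjusted p = 0.000251), -1.46 ± 0.18 for cyb-2.1 (edgeR adjusted p = 0.000588) and 1.05 ± 0.31 for cyd-1 (edgeR adjusted p = 0.0251). Course A runs ahead of course B by about 3 h in its molting cycle, an offset known from earlier results of these data. Each course B library was also paired with the course A library titled 3 h earlier (7 pairs). Whether that pairing takes the offset out was not tested. With edgeR 0 of 9 genes were then called lower, where 8.06% of 15591 genes were, and 0 of 9 higher, where 4.86% were. Of the 9 genes 7 had an adjusted p under 0.05 with differences below 1 on the log2 scale. Differences were more common in this pairing, where 9006 of all 15591 genes had an unadjusted edgeR p under 0.05. At the same title time 6558 of 15639 genes did. cyb-2.2 kept a difference of -0.92 ± 0.22 (edgeR adjusted p = 0.00570) and cyb-2.1 of -0.89 ± 0.21 (edgeR adjusted p = 0.00584), lower in course B in 6 of 7 and 7 of 7 pairs, while cyd-1 was 0.67 ± 0.18 higher (edgeR adjusted p = 0.0107). With that pairing cyb-1, cyb-3 and cye-1 were higher in course B, by 0.48 ± 0.08, 0.51 ± 0.09 and 0.76 ± 0.10 and in 7 of 7 pairs each. cdk-4 differed by -0.66 ± 0.12 and was lower in course B in 7 of 7 pairs. cdk-1 and cki-1 lay closest to 0 in this pairing, at 0.02 ± 0.08 and -0.05 ± 0.14, and their SE was smaller than at the same title time (0.14 and 0.40).

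**Figure D5:**
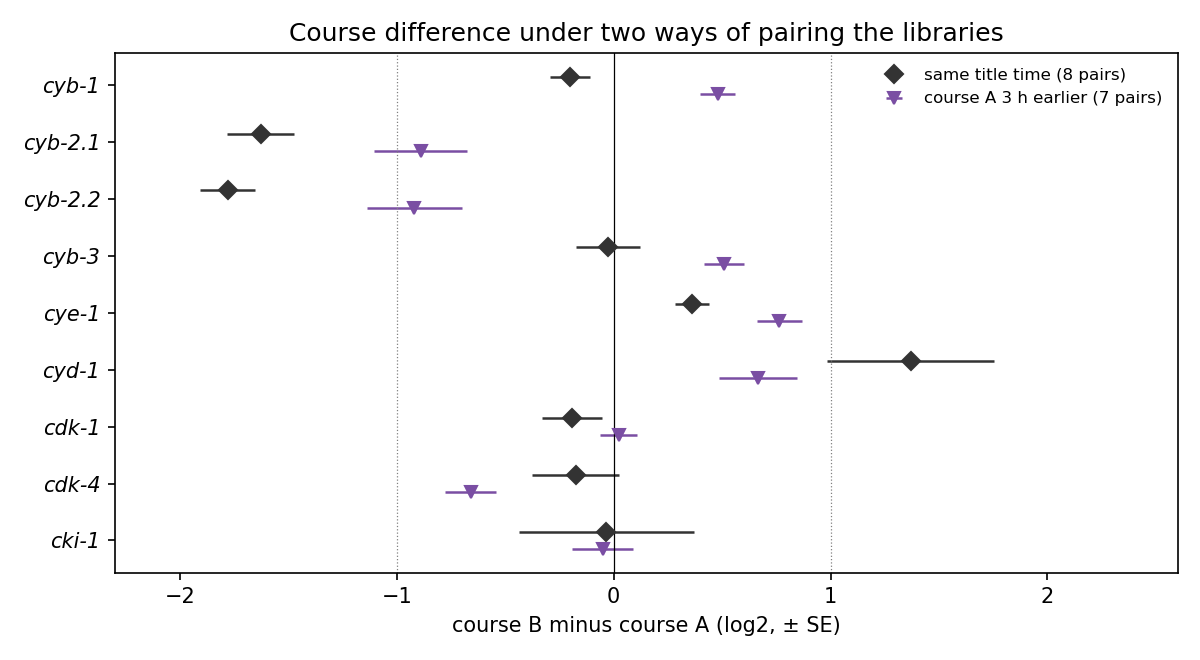
Difference between the courses, course B minus course A, in log2 units with SE bars (x axis) for each of the 9 genes, at the same title time (diamonds, 8 pairs) and against course A 3 h earlier (triangles, 7 pairs). cyb-2.1 and cyb-2.2 lie left of 0 under both, at -1.63 and -1.78 and at -0.89 and -0.92, and cyd-1 lies right of 0 under both, at 1.37 and 0.67. The size of these differences moves with the pairing, as do the values of cyb-1, cyb-3, cye-1 and cdk-4.

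A ratio within a library does not depend on scaling or on the pairing of libraries, and the ratio of the cyb-2 genes to cyb-1 separated the courses whatever the time. Per coding length, cyb-2.2 stood at 0.0499 to 0.146 of cyb-1 in the 10 libraries of course B and at 0.156 to 0.386 in the 16 libraries of course A. cyb-2.1 stood at 0.0200 to 0.0895 of cyb-1 in course B and at 0.108 to 0.251 in course A. Neither range overlapped between the courses. Among the 8 other measured genes these 2 had a ratio to cyb-1 that was lower in every library of course B than in any of course A, as had 0.174% of 14919 genes tested in both courses. This ratio was chosen after its values were seen and carries no test. The ratio of cyb-2.1 to cyb-2.2, in contrast, overlapped, at 0.334 to 1.07 in course B and 0.500 to 0.954 in course A.

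The slopes over time were not shown to differ between the courses for any of the 9 genes. Over all 26 libraries the slope was called higher in course B for 0 of 9 genes, where 0.156% of 16076 genes were, and lower for 0 of 9, where 0.305% were. By edgeR 1 gene, cyd-1, had an unadjusted p under 0.05, as had 2126 of all 16076 genes, and DESeq2 and limma also called 0. The slope differences of the cyb-2 genes, course B minus course A, were 0.00 ± 0.45 for cyb-2.2 and -0.10 ± 0.54 for cyb-2.1 (log2 over 15 h, SE).

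Genes whose time profile was most like that of each member were picked from 10097 named genes with at least 5 CPM on average in each course, by the smaller of the Pearson correlations of log2 CPM over the 10 libraries of course B and the 16 of course A. These libraries share time and scaling, so the values describe shape only. For cyb-1 they included gld-1 (0.990 in course B and 0.982 in course A), which encodes a translational repressor of the germ line, and F25E2.2. For cyb-2.2 they were cyb-1 itself (0.987 and 0.982), dvc-1 and let-99. For cyb-2.1 they were oops-1 (0.962 and 0.970), puf-5, an RNA-binding protein of oocytes, and C29A12.1. cyb-3 was most like lin-54, a subunit of the DREAM complex (0.856 and 0.855). It was next most like fzy-1, the Cdc20 activator of the anaphase-promoting complex (0.841 and 0.837), and F54D10.5. cye-1 was most like C06A5.8 (0.973 and 0.959), cey-3, a Y-box RNA-binding protein, and har-2. cyd-1 was most like F25E5.1 (0.933 and 0.932), nrde-3, a nuclear Argonaute, and lin-18, a Wnt receptor. cdk-4 was most like F47G3.3 (0.957 and 0.945), T20D4.12 and glb-33. cdk-1 was most like ima-2, an importin alpha (0.928 and 0.954), psf-2, a subunit of the GINS replication complex, and mbtr-1. cki-1 was most like F41C3.2 (0.857 and 0.837), epg-2 and K08D8.6.

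Other genes of the cell cycle machinery, in fixed lists that were likewise drawn up with earlier results known, were mostly not called. Most genes of any kind were not called either. Over all tested genes 16% rose, 12.1% fell and 21% cycled in course B, and 21.1%, 12.7% and 22.8% did so in course A. With lists this short, few or no calls lie near those shares. Of 7 other cyclin genes and 9 other CDK genes none was called rising, falling or cycling in either course. Among the latter is cdk-2, the partner of cyclin E, named here after its values were seen, with a change of 0.76 ± 0.16 on the log2 scale in course B (edgeR adjusted p = 0.00502) and 0.51 ± 0.23 in course A (edgeR adjusted p = 0.0791). Of 9 genes of the Rb, E2F and DREAM group none was called either, with a median change of 0.30 in course B and 0.43 in course A. Of 16 genes for the destruction of cyclins, 1 rose in both courses, apc-10, a subunit of the anaphase-promoting complex (1.65 ± 0.14 in course B and 1.54 ± 0.16 in course A, edgeR adjusted p = 2.39e-05 and 9.37e-07). Of 11 mitotic kinase and checkpoint genes, 2 rose in both, plk-2, a polo kinase of meiosis (1.89 ± 0.14 in course B and 1.78 ± 0.20 in course A), and csc-1, of the chromosomal passenger complex (1.11 ± 0.16 and 1.35 ± 0.50). Taking course A by itself, 5 of these 11 genes and 2 of the 16 destruction genes rose, beside 21.1% of all tested genes. Those counts include plk-2, csc-1 and apc-10, which rose in both courses.

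Direct regulators of the kinases held more calls by count, with no test of that difference. Of 10 such genes 8 were tested in both courses, of which 4 rose in both, 1 fell in both and 1 was called cycling in both. The strongest was cdc-25.4, a CDC25 phosphatase, which had 499 counts in the 4 late libraries and 0 counts in the 4 early libraries of course B, and averaged 7.40 CPM late and 0.243 CPM early in course A. The next was wee-1.3, an inhibitory kinase of CDK-1, which rose by 1.43 ± 0.21 on the log2 scale in course B and 1.80 ± 0.19 in course A (edgeR adjusted p = 0.000672 and 7.96e-07). The other rising genes were cdc-25.1 and cki-2 and the falling gene was cdka-1, named after their values were seen. For scale, 14920 genes had a test in each course, and of these 2237 were called rising in each, 1170 falling in each and 2457 cycling in each. The gene called cycling was cdc-25.4. With 0 counts in the early libraries of course B, it passed the filter there only through later libraries, which fixed its rise in advance. In course A it had 42 counts in the early libraries and 1376 in the late ones. With so little early signal, the fit cannot tell an 8 h cycle from a late onset that departs from a straight line.

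Markers of the germ line and of gametes rose over the same hours as cyb-1, the cyb-2 genes and cye-1. Of 18 germline markers 12 rose in both courses, of 15 oocyte markers 14, and of 15 sperm markers 13 were tested and 13 rose. Over all 14920 genes tested in both courses, 2237 rose in both. Sperm markers without early counts, such as spe-11 and msp-142 in course B, passed the filter only through later libraries. For such genes a rise was fixed in advance, so the sperm count carries no support. By the smaller of their changes in the courses, the germline markers with the largest rise were pgl-3, a P granule protein (3.17 ± 0.20 on the log2 scale in course B and 2.86 ± 0.24 in course A), and him-3, a protein of the meiotic chromosome axis (3.64 ± 0.23 and 2.78 ± 0.20). By the same measure, those of the oocyte were puf-5 (4.90 ± 0.71 and 4.88 ± 0.60) and cpg-1, an eggshell proteoglycan (4.37 ± 0.54 and 4.66 ± 0.50). The summed level of the germline markers was 1762 to 2882 CPM late and 831 to 1296 CPM early in course B, and 1087 to 2081 CPM late and 764 to 1050 CPM early in course A. The oocyte markers summed to 338 to 1590 CPM late and 146 to 237 CPM early in course B, and to 407 to 2364 CPM late and 240 to 381 CPM early in course A. The sperm markers summed to 99.1 to 949 CPM late and 16.5 to 23.9 CPM early in course B, and to 147 to 777 CPM late and 16.4 to 78.4 CPM early in course A. Of the sperm markers spe-11, msp-10, msp-38 and msp-142 had 0 counts in all early libraries of course B. Of these, msp-10 also had 0 counts in all late libraries of course B. In course A msp-10 and msp-38 had 0 counts in all early libraries. Of 12 early embryo markers none passed the filter, and their sum in the late and early libraries stayed at or below 0.901 CPM in course B and 1.91 CPM in course A. The part of these cell types in the cyclin profiles was not tested.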

How the data were processed

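Whole-worm RNA from 26 libraries was analysed, 10 of course B and 16 of course A. Raw counts per gene were made and deposited by the authors; for the aligner, counter, strand setting and genome build nothing is given in the labels, so no positions are printed. The deposited log2 values are, to within 4.99998e-05, the log2 of 8 plus a count brought to the average library total within each course, and were used only with limma as an alternative. Libraries were grouped by the growth conditions in the labels.

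Computed from the counts: genes reaching 10 counts (taken at the median library size) in 3 or more libraries were kept, scaled by TMM and tested with edgeR 4.0.16 (quasi-likelihood, robust; R 4.3.3), with p-values adjusted over all tested genes. Models were linear title time with an 8 h cosine and sine, a spline with 3 degrees of freedom, course with time as a block, and the course by time interaction. Alternatives were DESeq2 1.42.0, limma 3.58.1, other scalings, filters, periods and pairings, and each library left out. The script was tested on simulated data. Coding lengths came from the Ensembl WBcel235 annotation. In it the exons of the 9 genes overlap those of no other gene. No table with sequences of these genes was used here.

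The members, gene lists and tests were chosen with earlier results of these data known. Genes named beside the 10 members are the 3 most alike in profile and, from each list, the 2 with the largest trend called the same way in both courses; others are marked in the text, and 1 gene that the rule names is not reported here.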

Additional observations from a re-analysis of the deposited data

Results flagged for a closer look

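In course B the 36 h library stood apart from the other 9 for 3 B-type cyclins. cyb-1 had 101.7 CPM there and 54.4 CPM in the next highest library, cyb-2.1 had 6.79 CPM and 3.31 CPM, and cyb-2.2 had 13.9 CPM and 6.61 CPM. The next highest library was that of 34 h in each case, so the gap is the last step of a series that climbs. In samples with no order chance flags about 1 in 20 groups, a rate that does not apply to a climbing series, and the 3 genes share the library.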

How the results depend on the processing

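Rising calls in course B stayed at 4 in each scaling, filter, test and left-out library, with 5 without a log2 minimum and 3 with a minimum of 2. Falling calls in course B were 2 with DESeq2, limma or a quadratic term, 0 with a 9 h period, linear time alone or a minimum of 2 log2, and 0 to 2 with a library left out. Cycling calls in course B were 1 with DESeq2. Time pattern calls in course B were 3 to 7 with a library left out and 4 with a minimum of 2 log2. In course A falling calls were 1 with a minimum of 2 log2, cycling calls 0 with a 7 h period or a minimum of 2 log2 and 2 with a quadratic term (cyd-1 and cki-1), and time pattern calls 4 with a minimum of 2 log2. Between the courses, higher calls were 0 with course A 3 h earlier or a minimum of 2 log2, 2 without a minimum and 0 to 1 with a time left out; lower calls were 0 with course A 3 h earlier and 0 with a minimum of 2 log2.

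Values that changed sign were all of genes not called in that comparison. The trend of cdk-1 in course B was -0.028 over the 8 shared times. That of cki-1 was -0.054 with a 7 h period and -0.024 to 0.46 with a library left out in course B, and 0.35, 0.094 and 0.32 with a 7 h period, a 9 h period and linear time alone, and -0.23 to 0.19 with a library left out, in course A. Of the differences between courses, that of cyb-1 was 0.019 with limma, 0.044 at the same harvest time and 0.48 with course A 3 h earlier. That of cyb-3 was 0.0096 without the filter, 0.19 with limma, 0.33 at the same harvest time, 0.51 with course A 3 h earlier and -0.11 to 0.091 with a time left out. That of cdk-1 was 0.029 with limma and 0.024 with course A 3 h earlier, that of cdk-4 0.045 with limma, and that of cki-1 0.13 with limma, 0.018 at the same harvest time and -0.26 to 0.28 with a time left out. The deposited log2 values are scaled to the mean total of each course, which shifts a difference between courses by construction; for the other settings the cause was not tested. Over all settings of single genes, 1247 values were counted as unchanged, 33 lost the call, 8 gained it and 30 changed sign. The unchanged values include medians per coding length, which have no call. They also include cycle sizes and curve ranges, which cannot change sign.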
